A study of Homo sapiens with 56 samples.

Results

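The collagen genes were described across 28 established ovarian cancer cell lines. The set comprised 40 genes chosen by name for the collagen chain they encode, and 39 of them were read from probe sets that carry a single gene, among 18377 genes in all. COL17A1 was not analysed here. Each line had been hybridised to 2 Affymetrix Human Gene ST arrays, which makes 56 arrays, and the values are log2 intensities. The labels give no treatment, and the cultures differed in medium, serum and supplements. DMEM was the base medium of 10 lines, RPMI that of 9 and DMEM/F12 that of 7. UWB1.289 grew in a blend of RPMI and MEGM, and MCDB105 with M199 was used for TOV112D. Serum was 10% for 22 lines, 20% for EFO21 and OVCAR3, 5% for OV7, OV17R and OV56, and 3% for UWB1.289. Insulin was added for 8 lines (OV7, OV17R, OV56, OAW28, OAW42, OVCAR2, OVCAR3 and OVCAR5). OV7, OV17R and OV56 also received hydrocortisone at 0.4 to 0.5 µg/ml, and its part in their levels was not tested. Non-essential amino acids were added for JHOS2, JHOS3 and JHOS4. The labels do not tell whether a line's arrays stem from different cultures, so the p-values between lines measure the spread between these arrays, which may be technical. The study placed the lines on an epithelial to mesenchymal scale by an EMT score. The score was rebuilt here from 182 epithelial and 200 mesenchymal signature genes. The list used held 420 genes, fewer than the signature the paper describes, and the rebuilt values are not its published scores. A higher score marks a more mesenchymal line, and as the mean of a line's arrays it ran from -0.82 in PEO1 to 0.73 in TOV112D. The arrays of 5 lines had scores of opposite sign, -0.21 and 0.70 in HEYC2, 0.38 and -0.33 in FUOV1, 0.53 and -0.12 in OV7, 0.12 and -0.30 in OV56, and 0.18 and -0.15 in OAW42, so the place of these lines in the order depended on the array.

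Collagens are secreted or membrane-bound proteins built from 3 chains wound into a triple helix. Fibrillar collagens (types I, II, III, V, XI, XXIV and XXVII) form the fibres of connective tissue, type IV collagen forms the sheet-like network of basement membranes, and the other classes link, coat or anchor these structures. In ovarian carcinoma, collagen of the stroma is made mainly by fibroblasts, whereas basement membrane collagen can also come from the epithelial tumour cells. A culture of a single line holds no stroma by design. The set was divided into 11 fibrillar, 6 basement membrane and 22 other measured genes, the last group made of type VI beaded filament chains, the anchoring fibril chain COL7A1, short-chain network chains, fibril-associated collagens (FACIT), transmembrane collagens and multiplexins.

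The chains of type IV collagen lie in the genome as head-to-head pairs that are transcribed away from each other. COL4A1 (chr13:110148963-110307157) and COL4A2 (chr13:110307284-110513209) form 1 such pair, and their starts lie 127 bases apart. COL4A5 (chr X, 108439838 to 108697545) and COL4A6 (chr X, 108155614 to 108439458) form another, with starts 380 bases apart, and COL4A3 and COL4A4 on chromosome 2 one more, with starts 419 bases apart in the table of promoters. Because the partners moved together over the lines, as given further on, the bases around their starts are shown for COL4A1 with COL4A2 and for COL4A5 with COL4A6. Each sequence holds 250 bases before and 50 bases after the start on the strand of the gene, from RefSeq on GRCh38.p14. Capitals mark CCAAT boxes (CCAAT or ATTGG), GC boxes (GGGCGG or CCGCCC) and TATA boxes (TATAAA or TTTATA).
COL4A1 (chr13:110307108-110307407, minus strand): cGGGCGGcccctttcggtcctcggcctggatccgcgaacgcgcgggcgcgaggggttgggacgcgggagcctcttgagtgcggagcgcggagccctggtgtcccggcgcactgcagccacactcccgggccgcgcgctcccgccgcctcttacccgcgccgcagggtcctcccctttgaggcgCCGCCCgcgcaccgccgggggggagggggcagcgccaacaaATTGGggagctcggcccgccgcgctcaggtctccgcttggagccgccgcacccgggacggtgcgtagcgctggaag
COL4A2 (chr13:110307034-110307333, plus strand): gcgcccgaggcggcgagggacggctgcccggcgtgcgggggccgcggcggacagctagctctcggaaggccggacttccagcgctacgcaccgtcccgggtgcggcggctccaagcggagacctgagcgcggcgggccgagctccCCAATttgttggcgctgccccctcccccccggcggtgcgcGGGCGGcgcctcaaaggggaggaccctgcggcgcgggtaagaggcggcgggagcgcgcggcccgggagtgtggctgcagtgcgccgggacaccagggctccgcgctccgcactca
COL4A5 (chrX:108439588-108439887, plus strand): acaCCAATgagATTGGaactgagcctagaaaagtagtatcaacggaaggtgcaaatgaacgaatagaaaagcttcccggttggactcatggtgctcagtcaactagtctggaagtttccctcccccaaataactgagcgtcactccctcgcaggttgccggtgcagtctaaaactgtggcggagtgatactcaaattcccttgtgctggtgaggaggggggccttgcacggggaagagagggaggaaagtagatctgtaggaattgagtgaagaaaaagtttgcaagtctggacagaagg
COL4A6 (chrX:108439409-108439708, minus strand): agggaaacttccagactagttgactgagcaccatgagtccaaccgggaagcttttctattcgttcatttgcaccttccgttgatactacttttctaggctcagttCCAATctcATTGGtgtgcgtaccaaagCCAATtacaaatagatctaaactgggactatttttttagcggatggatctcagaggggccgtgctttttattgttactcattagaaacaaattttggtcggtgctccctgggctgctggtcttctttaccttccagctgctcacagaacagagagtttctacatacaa
The windows of COL4A1 and COL4A2 share 226 bases, read on opposite strands. The CCAAT box at position 110307179 and the GC box at position 110307219 of chromosome 13 lie in both. The windows of COL4A5 and COL4A6 share 121 bases and have CCAAT boxes at positions 108439591 and 108439599 of chromosome X in common, and neither holds a GC box. Over 27305 promoters of the same length, 35.7% hold a CCAAT box, 44.6% a GC box and 12% a TATA box. Of the 29 collagen genes in that table, 9 hold a CCAAT box, 17 a GC box and 4 a TATA box. CG dinucleotides were counted as well, and the windows of COL4A1 and COL4A2 hold 45 each, a number reached by 3.39% of all promoters. The windows of COL4A5 and COL4A6 hold 8 and 7, where the median promoter holds 14. Such matches describe the sequence and say nothing of binding.

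Between the lines, the median range of line means was 1.48 log2 units for the collagen genes and 1.72 for all genes. By limma's F test over all 56 arrays, with an adjusted p under 0.05 and line means spanning at least 2 log2 units, 12 of 39 collagen genes (30.8%) were called, against 36.1% of all genes. Without the minimum range, 24 of 39 passed the adjusted p, against 65.7% of all genes. The calls comprised 6 of 11 fibrillar genes (COL1A1, COL1A2, COL3A1, COL5A1, COL5A2 and COL11A1), 3 of 6 basement membrane genes (COL4A1, COL4A2 and COL4A5) and 3 of the 22 others (COL6A3, COL8A1 and COL12A1). Their ranges ran from 2.26 log2 units for COL5A1 to 5.96 for COL12A1, and the highest adjusted p among them was 5.98e-06. The median difference between the arrays of a line was between 0.0814 and 0.213 log2 units for these 12 genes. A probe set's level depends on its own probes, so levels are compared between lines for a gene and not between genes.

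A group of 3 arrays stood apart from the rest, namely HEYC2 array 1, OV56 array 2 and OVCA420 array 1. Their values had a standard deviation between 1.84 and 1.89, where the other arrays had 2.09 to 2.32. Dim genes read higher on them, and some brighter genes read lower. The line mean of COL12A1 was 7.01 in OV56 with all arrays and 8.17 without the 3. In HEYC2 it was 6.64 and 7.84, and that of COL4A1 in OVCA420 was 8.58 and 9.40. None of the 12 called genes had its highest line mean in HEYC2, OV56 or OVCA420, but 16 of the 27 other collagen genes did, and 2 of the 27 once these arrays were left out. The same 12 genes were called without them. Of the 27, 12 passed the adjusted p with all arrays and 20 without the 3. As a check of the labelled cell type, the keratins KRT8 and KRT18, which mark epithelial cells, had line means of at least 9.01 and 9.18. PAX8, a marker of Müllerian epithelium, ran from 6.29 to 10.95 and EPCAM from 4.57 to 14.53. Of the other carcinoma markers listed, KRT7 ran from 5.94 to 13.33 and KRT19 from 6.43 to 13.33. WT1 ran from 5.83 to 9.76 and MUC16 from 4.99 to 9.27, so these markers were not high in every line. The leukocyte marker PTPRC stayed between 2.80 and 3.93, below the background level of 5.42 that was taken from 339 olfactory receptor genes. Of the other measured leukocyte markers, CD3E exceeded that level in 1 line, and CD68, which many cell types express, ran from 6.44 to 10.73 and exceeded it in 28 of 28 lines. The endothelial markers PECAM1, CDH5 and TEK were highest in TYKNU, at 9.79, 9.28 and 7.87, while VWF was at 5.39 there and highest in OV17R, at 5.71. TYKNU was a line in which no collagen gene reached 1 log2 unit above its median on both arrays.

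**Figure D1:**
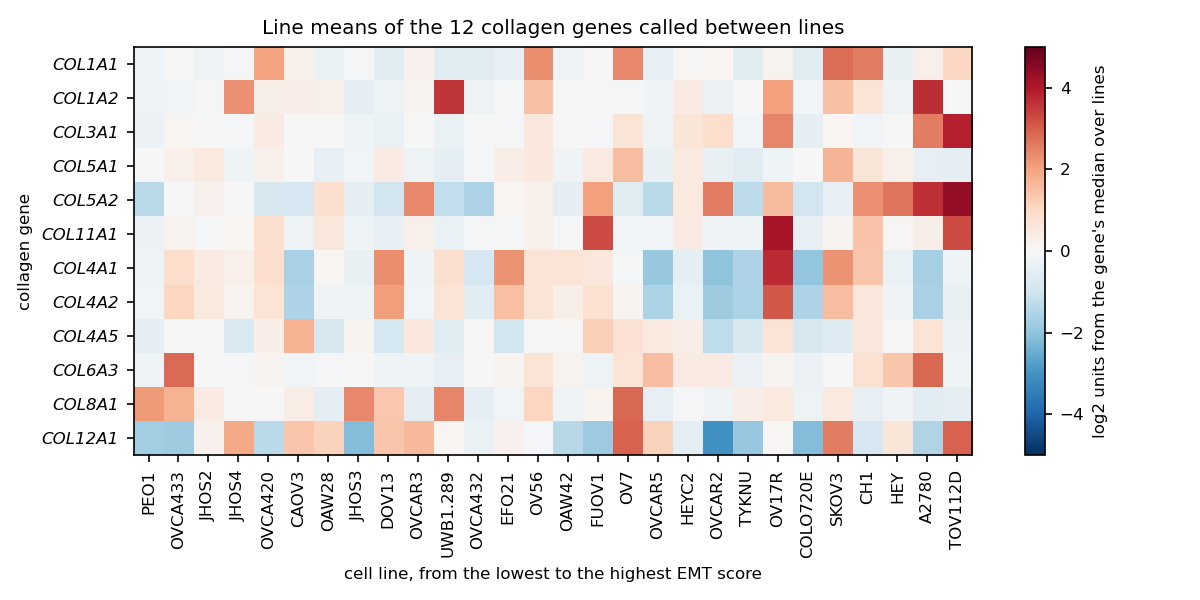
Line means of the 12 collagen genes called between lines (rows) in the 28 lines (columns, from the lowest EMT score on the left to the highest on the right), as log2 units from the gene's median over lines. Red cells are single lines or small groups of lines, such as COL1A2 in A2780 and UWB1.289, and for COL4A1 and COL12A1 they lie on both sides of a score of 0.

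Type I collagen, the main fibre protein of bone, skin and scar, is a trimer of 2 chains from COL1A1 and 1 from COL1A2. COL1A1 (chr17:50184101-50201631) had line means from 6.85 in UWB1.289 over a median of 7.43 to 10.21 in SKOV3. SKOV3 read 10.24 and 10.19 on its arrays, CH1 10.07 and 9.99, OV7 9.82 and 9.87, and OV56 9.85 and 9.65. OVCA420 at 9.46 and TOV112D at 8.48 were also at least 1 log2 unit above the median on both arrays, and the next line, A2780, was at 7.68. The standard error of a difference between lines was 0.215, so SKOV3 at 10.21, CH1 at 10.03, OV7 at 9.84 and OV56 at 9.75 each lay within 1 standard error of the next.
COL1A2 (chr7:94394895-94431227) was high in other lines. Its line means ran from 5.62 in JHOS3 over a median of 6.11 to 9.80 in A2780, where the arrays read 9.85 and 9.75. UWB1.289 read 9.79 and 9.60, JHOS4 8.40 and 8.42, and OV17R 8.15 on both arrays. OV56 at 7.59 and SKOV3 at 7.57 were the lines that were at least 1 log2 unit above the median in both COL1A1 and COL1A2. UWB1.289, with the second highest COL1A2, had the lowest COL1A1, at 6.85. OV7, with a COL1A1 of 9.84, had a COL1A2 of 6.04. Over the 28 lines, Pearson's r between COL1A1 and COL1A2 was 0.14 and Spearman's rho 0.44. The points share their arrays, and without the 3 arrays that stood apart the values were 0.13 and 0.36.

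The other fibrillar chains were high in a different but overlapping group of lines. COL3A1 (chr2:188974373-189012746) encodes type III collagen, which mixes with type I in elastic tissues. It ran from 5.71 in COLO720E over a median of 6.15 to 10.03 in TOV112D, where the arrays read 10.07 and 9.99. A2780 at 8.71 and OV17R at 8.59 followed, and these were the lines at least 1 log2 unit above the median on both arrays. Next came OVCAR2 at 7.02.
COL5A2 (chr2:189031898-189441111) lies beside COL3A1 and encodes a chain of type V collagen, which starts and limits the growth of fibrils. It is a mesenchymal gene of the EMT signature. Its line means spanned 5.94 log2 units, from 4.60 in OVCA432 over a median of 6.13 to 10.54 in TOV112D. A2780 was at 9.78, HEY at 8.82, OVCAR2 at 8.71, OVCAR3 at 8.55, CH1 at 8.42, FUOV1 at 8.20 and OV17R at 7.73. HEYC2, a line related to HEY by name, read 6.86 and 6.39, below both arrays of HEY at 8.80 and 8.83.
COL5A1 (chr9:134641803-134844843), the partner chain of type V, had a narrower range, from 6.09 in TYKNU over a median of 6.66 to 8.35 in SKOV3. SKOV3 and OV7, at 8.19, were the lines at least 1 log2 unit above the median on both arrays. TOV112D, the highest line for COL5A2, was at 6.16, the second lowest for COL5A1. Pearson's r between COL5A1 and COL5A2 was -0.15 over 28 lines.
COL11A1 (chr1:102876473-103108522), a chain of type XI collagen of cartilage that is also known from activated tumour stroma, ran from 4.52 in DOV13 over a median of 4.95 to 9.08 in OV17R. TOV112D was at 8.23, FUOV1 at 8.22 and CH1 at 6.39. FUOV1 had the largest difference between arrays for this gene, at 9.31 and 7.13. Both of its arrays were above those of every line but OV17R and TOV112D.

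The remaining 5 fibrillar genes, COL2A1, COL5A3, COL11A2, COL24A1 and COL27A1, had ranges from 0.83 to 1.35 log2 units. All of them were highest in OVCA420, 1 of the lines with an array that stood apart. With all arrays, COL27A1 passed the adjusted p of the F test, at 0.002. The other 4 had adjusted p-values between 0.075 and 0.46 by that test. Without the 3 arrays that stood apart, only COL27A1 was still highest in OVCA420. COL2A1 then kept a range of 1.08, with OV17R highest at 7.23, and the ranges of the others fell to between 0.47 and 0.92.

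Among the basement membrane genes, COL4A1 and COL4A2, the chains of the common type IV network, had the widest ranges over the lines. COL4A1 ran from 5.70 in OVCAR2 over a median of 7.73 to 11.47 in OV17R, with arrays at 11.48 and 11.46. DOV13 was at 10.04, EFO21 at 9.99, SKOV3 at 9.99 and CH1 at 9.12, and DOV13, EFO21 and SKOV3 lay within the standard error of 0.310 of each other. COL4A2 ran from 6.29 in OVCAR2 over a median of 8.05 to 11.15 in OV17R, followed by DOV13 at 10.12, SKOV3 at 9.61, EFO21 at 9.55 and OVCA433 at 9.14. Pearson's r between COL4A1 and COL4A2 was 0.98 and Spearman's rho 0.96 over 28 lines, and they were 0.98 and 0.97 without the 3 arrays. Over all 741 pairs of measured collagen genes the median r was 0.23 and the 95th percentile 0.83. Without those arrays they were 0.12 and 0.61.
COL4A5, a chain of the kidney and smooth muscle type IV network, ran from 4.59 in OVCAR2 over a median of 5.87 to 7.63 in CAOV3. FUOV1, at 7.06, was the other line at least 1 log2 unit above the median on both arrays. Its neighbour COL4A6 had a range of 1.89, short of the threshold, and was also highest in CAOV3, at 6.70. Their r was 0.75 and rho 0.67.
COL4A3 and COL4A4, the chains of the glomerular network, had ranges of 1.48 and 1.83 and were both highest in FUOV1, at 6.39 and 6.99, with an r of 0.91 and a rho of 0.85. Of the 3 head-to-head pairs, that of COL4A5 and COL4A6 lay below the 95th percentile of all pairs with all arrays, at 0.75, and above it without the 3 arrays, at 0.77. Chains on different chromosomes varied widely in r. It was 0.14 for type I and -0.15 for type V. For COL1A1 with COL5A1 it was 0.65 with all arrays and 0.51 without the 3, where rho was 0.37 and 0.19. For the chains of type IX, a fibril-associated collagen of cartilage, r was 0.58 for COL9A1 with COL9A2. It was 0.74 for COL9A1 with COL9A3 and 0.71 for COL9A2 with COL9A3. Without the 3 arrays these r values were 0.40, 0.62 and 0.39. COL6A1 and COL6A2, neighbours on chromosome 21 that are transcribed in the same direction, had an r of 0.65.

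**Figure D2:**
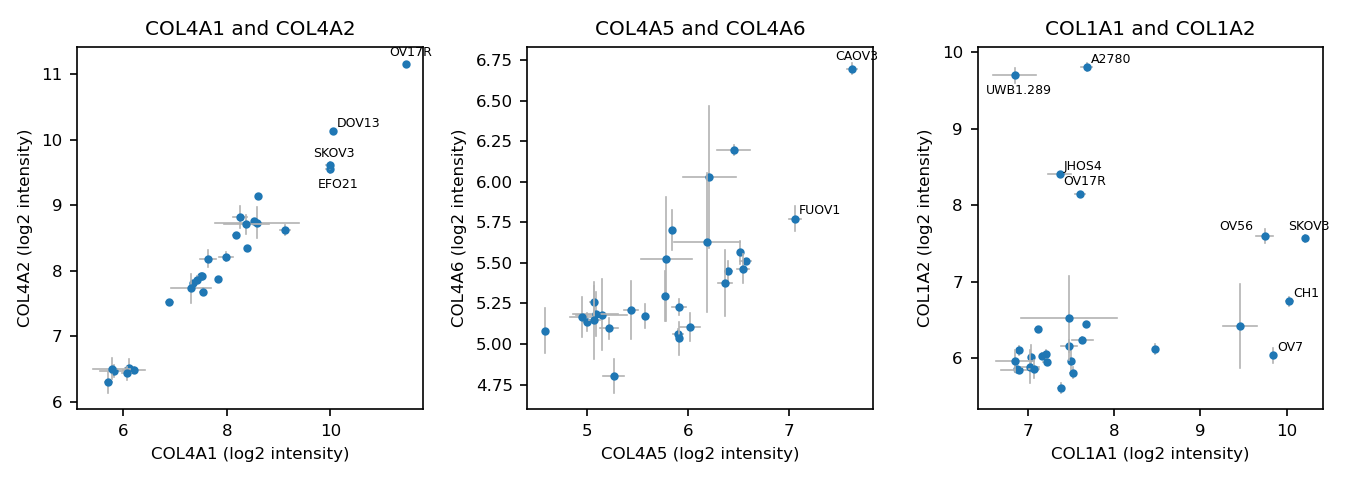
Line means of 3 pairs of chains on log2 intensity axes, 1 point for each of the 28 lines, with grey lines joining both arrays of the line. COL4A1 and COL4A2 lie along a diagonal (r = 0.98) and COL4A5 and COL4A6 more loosely so (r = 0.75), while lines high in COL1A1 and lines high in COL1A2 lie along separate arms (r = 0.14).

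Among the other classes, COL12A1 (chr6:75084326-75206053), a fibril-associated collagen that bridges fibrils to the surrounding matrix, had the widest range of the 39 genes. It ran from 4.07 in OVCAR2 over a median of 7.08 to 10.04 in OV7 and 10.03 in TOV112D, which did not differ beyond the standard error of 0.448. SKOV3 was at 9.69, JHOS4 at 8.99, OVCAR3 at 8.72, and CAOV3 and DOV13 at 8.47. The values were spread over the whole range and formed no single high group.
COL8A1 (chr3:99638594-99799217), a short-chain network collagen of vessel walls, ran from 3.92 in A2780 over a median of 4.49 to 7.35 in OV7. UWB1.289 at 6.93, JHOS3 at 6.88, PEO1 at 6.61 and OVCA433 at 6.24 were the other lines at least 1 log2 unit above the median on both arrays.
COL6A3 (chr2:237324018-237414164), the long chain of the type VI beaded filaments found around cells, ran from 4.52 in UWB1.289 over a median of 4.95 to 7.84 in A2780. OVCA433 was at 7.77, OVCAR5 at 6.50 and HEY at 6.35. COL6A1 and COL6A2, the partner chains, ran from 7.17 to 9.05 and from 7.50 to 8.79, and their r with COL6A3 was 0.23 and 0.40.
Of the 19 other genes in these classes, 5 were at least 1 log2 unit above their median on both arrays of a line. These were COL6A1 in OVCAR2 (9.05), COL10A1, a growth plate collagen, in TOV112D (6.01), COL14A1, a fibril-associated collagen, in COLO720E (6.07), and the transmembrane collagens COL13A1 in OVCAR5 (8.03) and COL25A1 in CAOV3 (6.89). COL19A1 exceeded the background level in 0 of 28 lines and COL24A1, COL14A1 and COL21A1 in 2 each. Of the genes called between lines, COL11A1 exceeded it in 6 lines, COL6A3 and COL8A1 in 7 each and the others in at least 19.

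High collagen expression was therefore spread over many lines, with sets of genes that overlapped between lines. PEO1 and JHOS3 both had COL8A1 alone. OV17R, SKOV3 and TOV112D each had 6 collagen genes at least 1 log2 unit above the median on both arrays. In OV17R they were COL1A2, COL3A1, COL5A2, COL11A1, COL4A1 and COL4A2. In SKOV3 they were COL1A1, COL1A2, COL5A1, COL4A1, COL4A2 and COL12A1, and in TOV112D COL1A1, COL3A1, COL5A2, COL11A1, COL10A1 and COL12A1. At the other end, 5 lines (JHOS2, OVCA432, OAW42, HEYC2 and TYKNU) had none, and 13 lines had 1 or 2. HEYC2, OV56 and OVCA420 each include an array that stood apart, so the rule of both arrays can miss genes there. The share of all genes this high in a line was not counted, so these counts mark no line as rich or poor in collagen. Fibroblast markers were unevenly spread over the lines as well. The sum of 8 of them (THY1, PDGFRA, PDGFRB, DCN, LUM, FAP, POSTN and ACTA2) was highest in OV7, at 60.5, followed by TOV112D at 54.9 and A2780 at 53.3, and was lowest in JHOS4, at 35.8. DCN, LUM, FAP and POSTN exceeded the background level in 2 or 3 lines each, PDGFRA in 5, PDGFRB in 22 and THY1 in 27. The lowest line mean of ACTA2, 5.74 in TYKNU, was above that level. Over 28 lines, the mean of the 8 markers had an r of 0.69 with COL3A1, 0.54 with COL1A1 and 0.49 with COL5A2, and between -0.07 and 0.33 with the other 9 called genes. Spearman's rho was 0.65 for COL1A1, 0.62 for COL3A1, 0.49 for COL6A3 and 0.48 for COL5A2. It lay between -0.06 and 0.32 for the rest of the called genes. The part of the markers in these levels was not tested.

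The study asks which genes follow the EMT score, and it takes a Spearman correlation beyond 0.5 in size as its threshold. No collagen gene reached it. Over 28 lines, 0 of 39 had a rho above 0.5, against 1.02% of all genes, and 0 had a rho below -0.5, against 2.08%. With 100000 permutations of the score and Benjamini-Hochberg adjustment over all genes, 0 collagen genes passed in either direction, against 0.131% of all genes with a positive and 0.675% with a negative rho. At an unadjusted p under 0.05, 2 of 39 (5.13%) passed, against 10% of all genes. By limma's slope on the score 0 passed too, against 0.19% rising and 0.903% falling, and 3 of 39 (7.69%) had an unadjusted p under 0.05, against 9.74% of all genes.
The median rho of the 39 genes was 0.05, beside 0.01 for all genes. It was 0.14 for the fibrillar and -0.11 for the basement membrane genes. The lowest value was -0.40 ± 0.17 (jackknife SE, n = 28 lines) for COL8A1, with a permutation adjusted p of 0.44. The highest was 0.41 ± 0.19 for COL5A2, with a permutation adjusted p of 0.41. COL8A1 exceeded the background level in 7 of 28 lines, so its rho mostly ranks lines below that level. With a standard error near 0.2, correlations of moderate size in either direction could not be told from 0 at this number of lines.
Pearson's r was above 0.5 for COL5A2 (0.53, permutation adjusted p = 0.16) and COL3A1 (0.51, permutation adjusted p = 0.13). PEO1 and TOV112D lay farthest from the middle of the score. Without them the r values were 0.42 and 0.41, so that r above 0.5 rested on those lines. The limma slope of COL5A2 was 1.91 ± 0.57 (SE) log2 units for each unit of the score (limma adjusted p = 0.12), that of COL3A1 1.10 ± 0.35 (limma adjusted p = 0.16) and that of COL8A1 -0.89 ± 0.38 (limma adjusted p = 0.40). Within base media, rho of COL5A2 was 0.07 over the 10 DMEM lines, 0.63 over the 9 RPMI lines and 0.25 over the 7 DMEM/F12 lines. That of COL3A1 was -0.47, 0.40 and 0.57, and that of COL8A1 -0.27, -0.43 and 0.39. Slopes that differ between the 3 media were tested for every gene by limma's F test, which called 0 collagen genes and 0.00544% of all genes. At an unadjusted p under 0.05, 3 of 39 (7.69%) passed that test, against 2.82% of all genes.

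**Figure D3:**
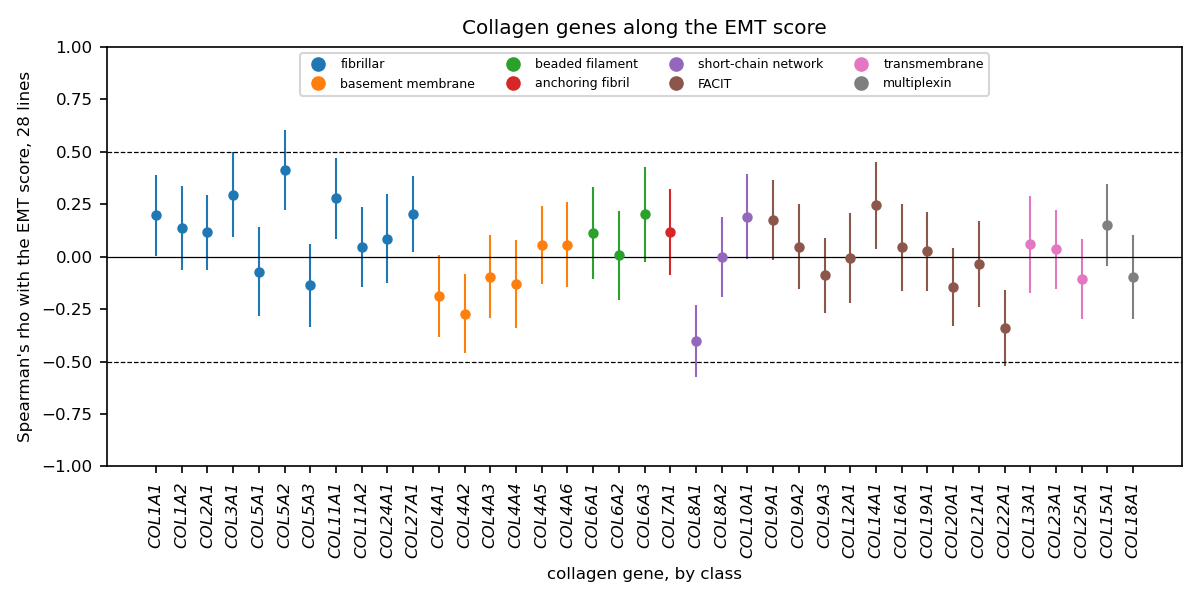
Spearman's rho between the line mean and the EMT score over 28 lines for each of the 39 collagen genes, coloured by class, with bars of 1 jackknife standard error and dashed lines at 0.5 and -0.5. All points lie between the dashed lines, from -0.40 for COL8A1 to 0.41 for COL5A2.

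Some genes that modify, process or bind collagen had a rho beyond 0.5 in size. Of these, PCOLCE2 and DDR1 passed the permutation adjusted p. Of all genes, 1.02% had a rho above 0.5 and 2.08% below -0.5. Of 17 genes of collagen modification and folding, 1 had a rho above 0.5 and 1 below -0.5. These were P3H1, a prolyl 3-hydroxylase (0.56 ± 0.14, jackknife SE, permutation adjusted p = 0.14), and P4HB, a subunit of prolyl 4-hydroxylase (-0.54 ± 0.15, permutation adjusted p = 0.18). Of 13 genes of procollagen processing and crosslinking, PCOLCE2 (0.67 ± 0.11, permutation adjusted p = 0.027) and PCOLCE (0.52 ± 0.16, permutation adjusted p = 0.19), enhancers of procollagen cleavage, were above 0.5. PCOLCE is itself a signature gene.
Among 7 collagen receptors, the receptor kinases DDR1 and DDR2 had opposite signs. DDR1 fell with the score, with a rho of -0.69 ± 0.11 (permutation adjusted p = 0.022) and a limma slope of -1.48 ± 0.27 (limma adjusted p = 0.003). DDR2 had a rho of 0.58 ± 0.15 (permutation adjusted p = 0.12) and rose by the slope, at 1.99 ± 0.49 (limma adjusted p = 0.034). Within base media, rho of DDR1 was -0.81 in the lines grown in DMEM, -0.82 in those of RPMI and 0.00 in those of DMEM/F12, and that of DDR2 0.03, 0.72 and 0.86. PCOLCE2 had 0.59, 0.78 and 0.46. P3H1 and PCOLCE2 also rose by limma's slope, at 0.82 ± 0.20 (limma adjusted p = 0.035) and 0.93 ± 0.22 (limma adjusted p = 0.031).

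SKOV3 and PEO1 are 2 of the lines that the study used as a model of EMT. The rebuilt score was 0.54 in SKOV3 and -0.82 in PEO1, and the paper's own scores for both lines are smaller in size. Here 7 of 39 collagen genes (17.9%) were higher in SKOV3, against 5.31% of all genes, and 1 (2.56%) was lower, against 5.46%. The test was limma's contrast of both lines in a fit of all 56 arrays, and a call needed an adjusted p below 0.05 together with a minimum change of 1 log2 unit. The genes that were higher were 3 fibrillar, 2 basement membrane, 1 fibril-associated and 1 multiplexin gene.
COL12A1 read 9.68 and 9.70 in SKOV3 and 5.38 and 5.29 in PEO1, a difference of 4.35 ± 0.45 log2 units (SE, limma adjusted p = 3.12e-09). COL1A1 read 10.24 and 10.19 against 7.18 and 7.26, a difference of 2.99 ± 0.22 (limma adjusted p = 8.72e-13). COL1A2 was at 7.61 and 7.52 against 5.98 and 5.94, so both chains of type I were higher in SKOV3, COL1A2 by 1.61 ± 0.24 (limma adjusted p = 3.56e-06).
Both arrays of SKOV3 lay above both arrays of PEO1 for these genes and for the next 4. COL4A1 differed by 2.48 ± 0.31 (limma adjusted p = 1.51e-07), COL4A2 by 1.69 ± 0.17 (2.30e-09) and COL5A1 by 1.67 ± 0.32 (1.72e-04, limma adjusted p). COL18A1 (chr21:45405165-45513720), a basement membrane multiplexin and the source of endostatin, differed by 1.37 ± 0.28 (limma adjusted p = 3.54e-04).
COL8A1 went the other way, at 4.86 and 5.08 in SKOV3 and 6.81 and 6.40 in PEO1, a difference of -1.63 ± 0.26 (limma adjusted p = 1.21e-05). COL5A2 differed by 0.92 ± 0.25 (limma adjusted p = 0.0065), just under the minimum change. COL3A1, at 0.39 ± 0.30, and COL11A1, at 0.40 ± 0.41, were not called.

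**Figure D4:**
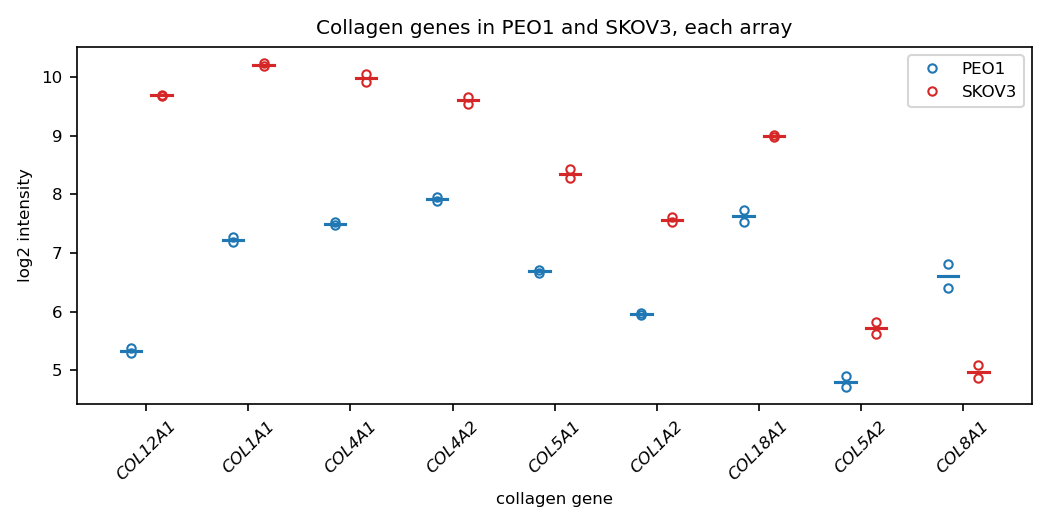
Log2 intensity on each array of PEO1 (blue) and SKOV3 (red) for the 8 collagen genes called between both lines and for COL5A2, ordered by the difference, with open circles for arrays and bars for line means. The circles of both lines do not overlap for any of these genes, and COL8A1 is the gene with PEO1 above SKOV3.

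The same contrast called several genes that act on collagen. Of 17 modification and folding genes, 4 were higher in SKOV3. P3H1 was higher by 2.63 ± 0.18 log2 units (SE), the prolyl 4-hydroxylase chains P4HA2 and P4HA3 by 1.59 ± 0.24 and 1.15 ± 0.20, and the lysyl hydroxylase PLOD1 read 9.69 and 9.76 against 8.32 and 8.30. In the same list FKBP10, at -1.73 ± 0.18, and P3H2, at -1.26 ± 0.34, were lower. Of 13 processing and crosslinking genes, the lysyl oxidases LOXL2 and LOX, which join collagen molecules, were higher by 3.88 ± 0.24 and 3.68 ± 0.53. BMP1, the procollagen C-proteinase, was higher by 1.45 ± 0.19 and LOXL3 was lower, at -1.17 ± 0.22.
Of 7 receptors, MRC2, which takes collagen up into cells, was higher by 2.29 ± 0.24 and DDR2 by 1.71 ± 0.40. DDR1, at -3.16 ± 0.22, and the integrin chain ITGA2, at -3.28 ± 0.69, were lower. Of the 8 epithelial carcinoma markers, 7 were lower in SKOV3. Of the 8 fibroblast markers, POSTN and ACTA2 were higher and THY1 was lower, and their sum was 44.3 in SKOV3 and 38.3 in PEO1. Their part in the collagen differences was not tested. SKOV3 grew in DMEM and PEO1 in RPMI, and with a single line on each side, line, score and base medium cannot be told apart.

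Between the 10 DMEM and the 9 RPMI lines, limma called 0 of 39 collagen genes and 0% of all genes. The absence of calls is thus nothing particular to the collagen genes. At an unadjusted p under 0.05 there were 0 of 39 collagen genes, against 498 of all genes (2.71%), and so small a share says little about 39 genes. The differences, DMEM minus RPMI, ran from -1.24 ± 0.67 (SE) log2 units for COL5A2 to 1.17 ± 0.60 for COL4A1. With standard errors of this size, a difference of 1 log2 unit in these genes was not detectable.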

How the data were processed

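Total RNA of 28 ovarian cancer cell lines was hybridised to 56 Affymetrix Human Gene ST arrays, 2 per line. The authors deposited log2 values after RMA normalization, with affy 1.42.3 named in the submitters' processing notes. The arrays normalized together and the genome build are not given in the sources used here. An array labelled JHSO4 was taken as JHOS4. Probe sets that carry 1 gene (19310 of 28869) gave 18377 genes, with the highest-mean probe set for genes with several, and the arrays of a line were averaged. COL1A2 has 1 further probe set shared with other genes, which was not used. Gene positions come from RefSeq on GRCh38.p14.

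The rebuilt EMT score compares mesenchymal with epithelial signature genes by a signed Kolmogorov-Smirnov statistic, after the median of a gene over the lines was subtracted. Lines, slopes, media and SKOV3 with PEO1 were compared with limma 3.58.1 (R 4.3.3, statmod 1.5.0, trend and robust), and correlations used 100000 permutations of the score, all adjusted by Benjamini-Hochberg over all genes. The rest was done in Python 3.11.15 with scipy 1.17.1, numpy 2.4.6, matplotlib 3.10.9 and pandas 2.3.3. The F test between lines, the contrast of SKOV3 with PEO1, the slope and Spearman's rho were tried on simulated data. The tests of base media and of Pearson's r were not. The members and gene lists were chosen with earlier results of these data known. Values in lines are given for members called between lines, and full statistics for members called in a comparison and for those at the ends of rho. From other lists, genes called in a comparison or beyond 0.5 in rho are named. Other settings tried were the mean over probe sets, a filter on dim genes, a further quantile normalization, other forms of the score, lines or arrays left out, a replicate block, other media subsets and other limma settings. The number of arrays limits the precision.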

Additional observations from a re-analysis of the deposited data

Results flagged for a closer look

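Among the 12 collagen genes called between lines, 12 of 36 combinations of gene and base medium had a line that lay far from the others, by the gap to its nearest neighbour over the whole range of that medium's lines (Dixon's ratio, 95% critical value). For genes picked at random chance gives about 1 in 20, but these genes were chosen for a wide range over lines, so that rate does not apply to them, and COL4A1 and COL4A2, which moved together, are counted separately. In every case the outlying line was the highest.
Among the 10 DMEM lines, COL1A2 and COL5A1 were highest in SKOV3, at 7.57 and 8.35 with the next line, CH1, at 6.75 and 7.27 (ratios 0.479 and 0.478), and COL6A3 was highest in OVCA433, at 7.77 with CH1 at 5.72 (0.661). Among the 9 RPMI lines, COL1A2 and COL3A1 were highest in A2780, at 9.80 and 8.71 with HEYC2 at 6.53 and OVCAR2 at 7.02 (0.821 and 0.563). COL4A1 and COL4A2 were highest in EFO21, at 9.99 and 9.55 with OVCAR3 at 7.51 and PEO1 at 7.92 (0.577 and 0.501), and COL8A1 in PEO1, at 6.61 with HEYC2 at 4.43 (0.811). Among the 7 DMEM/F12 lines, COL3A1, COL4A1 and COL4A2 were highest in OV17R, at 8.59, 11.47 and 11.15 with OV7 at 6.79, OV56 at 8.37 and FUOV1 at 8.81 (0.676, 0.752 and 0.699). COL5A1 was highest there in OV7, at 8.19 with OV56 at 7.17 (0.586). HEYC2 and OV56, which follow in 4 of these cases, each include an array that stood apart.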

How the results depend on the processing

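The number of collagen genes called between lines was 12 under each alternative except with no minimum range, which gave 24, and with a replicate block it was also 12. In SKOV3 against PEO1, leaving out an array of either line gave 7 or 8 higher genes, with COL5A2 added at 1.02 without SKOV3 replicate 1 and at 1.01 without PEO1 replicate 2, and the replicate block gave 7 higher and 1 lower. The number beyond 0.5 along the EMT score was 0 under each alternative but Pearson's r, which gave 2. The difference between array 1 and array 2 was correlated between lines. The median was -2.47e-04 over 378 pairs of lines, and 91 pairs were over 0.1. The numbers were therefore not taken to pair arrays across all lines. Single pairs ran from -0.89 to 0.87, so some lines did vary together, and a batch shared by some lines was not tested.
Among named genes, PCOLCE2 missed the adjusted p of rho without replicate 2, with HEY and HEYC2 merged, centred on base medium, without PEO1 and TOV112D, and by Pearson's r, and DDR1 did without PEO1 and TOV112D (-0.67). DDR2 passed it without the 3 arrays that stood apart (0.66) and by Pearson's r (0.61), and P3H1 by Pearson's r (0.62) and with uncentred values (0.65). The slopes of P3H1, PCOLCE2 and DDR2 kept their sign but missed the adjusted p without replicate 2, with HEY and HEYC2 merged and without the end lines, and those of PCOLCE2 and DDR2 also centred on base medium. In SKOV3 against PEO1, BMP1 fell under the minimum change as a mean over probe sets (0.86), and P3H2 missed the adjusted p without SKOV3 replicate 1 (-1.25) and without PEO1 replicate 1 (-1.09). No named value changed sign. The causes of these changes were not tested. Between 0 and 10 of the 39 rho values changed sign, with none called on either side. With the 3 arrays left out, the SKOV3 counts, a setting added after the data were seen, were 7 higher and 1 lower.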
